A study of Mus musculus with 40 samples.

Results

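Haemoglobin and red cell genes were read on every array of a mouse brain series: Hba-a1, Hba-a2, Hbb-b1, Hbb-b2, Alas2 and Slc4a1. The members were the 6 genes of that list of 36362 gene names on the array, found by the gene name that the array's own table gives, and each had 1 probe among 55589 probes with a value on every array. The question was how much red cell RNA each tissue sample carried, array by array, in all 10 groups. RNA came from the cerebral cortex or the cerebellum, and 40 single-colour Agilent arrays were hybridised, 4 for each group. Each region had 2 wild-type groups fed the normal diet, one aged 2 months and one aged 29 months. The other 3 groups were all 29 months old and comprised wild-type animals fed the α-tocopherol-deficient diet, Ttpa-/- animals fed that same diet, and Ttpa-/- animals fed the α-tocopherol-supplemented diet. The normal diet held 36 mg and the supplemented diet 600 mg of α-tocopherol per kg, and all mice were on the C57Bl/6 background. Ttpa encodes the α-tocopherol transfer protein of the liver, whose loss lowers vitamin E throughout the body, and the deletion was not restricted to a cell type. No Ttpa-/- mice were measured at 2 months or on the normal diet.

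Haemoglobin carries oxygen in red cells and is built from paired α-globin and β-globin chains, each holding a haem group. Hba-a1 and Hba-a2 encode the adult α chains and Hbb-b1 and Hbb-b2 the adult β chains. Alas2 encodes the erythroid form of aminolevulinate synthase, the first enzyme of haem synthesis, and Slc4a1 encodes band 3, the chloride and bicarbonate exchanger that also anchors the red cell skeleton to the membrane. Young red cells (reticulocytes) have lost the nucleus but still hold globin messenger RNA, so blood that stays in the vessels of a dissected tissue adds these transcripts to it. Globin transcripts have also been described in some neurons and glial cells. Perfusion is stated in the methods for the tissue used in histology and is not stated there for the tissue used for RNA. In whole-tissue RNA, fewer cells of a type and less RNA per cell cannot be told apart.

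The probes set what each name means here, and the sequences of an α-globin and a β-globin probe are shown because both lie inside the coding part of the messenger RNA. The probe named Hba-a1 (mm9, chr11:32183955-32184014, plus strand) began at base 161 of its RefSeq transcript, and the Hbb-b2 probe, for which the file gave no position, began at base 195 of its own. Both are printed 5′ to 3′ as the array design gives them, with no part singled out in capitals.
Hba-a1 probe: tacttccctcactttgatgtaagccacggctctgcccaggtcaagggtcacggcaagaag
Hbb-b2 probe: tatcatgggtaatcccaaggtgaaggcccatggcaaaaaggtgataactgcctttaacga

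The Hba-a1 and Hba-a2 probes each listed transcripts of both α-globin genes, so their signals could not be assigned to 1 gene copy. Hba-a2 was read at chr11:32197245-32197304 on the plus strand. The probe that the array names Hbb-b1 was at chr7:110961105-110961164 on the minus strand, and its accession now belongs to Hbb-bt, an adult β-globin gene of the single haplotype that C57Bl/6 mice carry. A further β-globin probe, named Beta-s on the array and Hbb-bs in RefSeq, was no member and served as a neighbour for comparison. The transcripts listed for the Hbb-b2 probe overlapped in part with those listed for Beta-s, so signals of near-identical β-globin genes could not be separated either. Below, the name Hbb-b2 stands for what its probe read and does not say which β-globin gene of these mice that was. Alas2 was read at chrX:147004993-147005052 on the plus strand and Slc4a1 at chr11:102210256-102210315 on the minus strand, both in mm9. Probes differ in how strongly they bind, so signals were compared between arrays and never between genes.

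The stretch of 150 bases just before the transcription start was available from RefSeq (GRCm38.p6) for Hba-a1, Hba-a2, Hbb-bt, Hbb-bs and Alas2, and 1 window of each kind is shown because these genes moved together from array to array. The windows are chr11:32283522-32283671 on the plus strand for Hba-a1, chr7:103813924-103814073 on the minus strand for Hbb-bt and chrX:150547267-150547416 on the plus strand for Alas2. They are printed 5′ to 3′ in the direction of the gene, and capitals mark matches on either strand to AGATAA or TGATAA (the forms of the GATA factor motif searched), CACCC (the core that Krüppel-like factors bind), CCAAT and TATAA.
Hba-a1: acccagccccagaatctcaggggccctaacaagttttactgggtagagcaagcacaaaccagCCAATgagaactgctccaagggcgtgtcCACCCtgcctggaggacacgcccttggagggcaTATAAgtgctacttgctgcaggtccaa
Hbb-bt: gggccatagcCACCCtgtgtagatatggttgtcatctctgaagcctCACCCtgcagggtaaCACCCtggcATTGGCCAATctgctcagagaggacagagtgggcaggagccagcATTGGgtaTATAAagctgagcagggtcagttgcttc
Alas2: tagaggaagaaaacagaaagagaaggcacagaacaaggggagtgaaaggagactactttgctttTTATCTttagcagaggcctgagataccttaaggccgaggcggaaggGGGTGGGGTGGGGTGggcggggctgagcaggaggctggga

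Each of the 5 windows held CACCC, which 37.4% of all 32851 promoter windows of this length also held. CCAAT was in the 4 globin windows and in 24.5% of all windows, and TATAA was in the same globin windows and in 14.2% of all windows. AGATAA was in the Alas2 window alone, on the minus strand, against 5.65% of all windows, and TGATAA, found in 4.45% of all windows, was in none of the 5. The Hba-a1 and Hba-a2 windows were identical in 147 of 147 bases at an offset of 3 bases. A match describes the letters only, and binding was not measured.

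Technical measures of the 40 arrays overlapped between the regions but ran higher in the cerebellum. The 75th percentile of processed signals ran from 365 to 549 on cortical arrays and from 497 to 925 on cerebellar arrays. The share of probes well above background was 51.4% to 57.1% in the cortex and 55.2% to 61.4% in the cerebellum. No probe was saturated on any array, and arrays of the same group correlated at 0.973 to 0.993. Of 2 Ttpa probes, one was well above background on 4 of 4 arrays of each wild-type cerebellar group, on 0 of 4 cerebellar arrays of Ttpa-/- mice on the deficient diet and on 1 of 4 on the supplemented diet. The other was well above background on 1 array of the 40, a cerebellar array of a Ttpa-/- mouse on the deficient diet, and checked nothing. In the cortex the first probe too was near background in every group, and the sources used here do not place either probe within or outside the deleted part. The mean log2 signal of 7 cortical marker genes was 2.65 to 3.33 on cortical arrays and −2.36 to −1.77 on cerebellar arrays, and that of 8 cerebellar markers was −2.88 to −2.03 and 4.69 to 5.53, so every array matched its labelled region. The 8 arrays of a slide held 2 groups each, and each group lay on 1 slide, so the groups compared shared a slide only for aging in the cortex, the deficient diet in the wild-type cerebellum and the supplement in the Ttpa-/- cerebellum.

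Signals are given as log2 of the processed signal over the array's 75th percentile, so a value of 0 is a signal equal to that percentile and 1 unit is a doubling. Hba-a1 was well above background on all 40 arrays and spanned a 389-fold range. In the young cortex the 4 arrays read 0.32, 0.02, 0.06 and −1.78, a mean of −0.34 ± 0.96 (SD, n = 4). In the aged cortex on the normal diet they read 2.43, 1.55, 2.79 and 2.24, a mean of 2.25 ± 0.52 (SD, n = 4). Every aged array was above every young array.

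The aged cortex on the other diets had higher means still, and its arrays were the most uneven in Ttpa-/- mice. In wild-type mice on the deficient diet Hba-a1 read 3.37, 2.79, 2.71 and 4.56, a mean of 3.36 ± 0.85 (SD, n = 4). In Ttpa-/- mice on the deficient diet it read 1.51, 3.87, 6.66 and 3.99, a mean of 4.01 ± 2.11 (SD, n = 4). In Ttpa-/- mice on the supplemented diet it read 3.73, 6.83, 5.76 and 4.23, a mean of 5.14 ± 1.42 (SD, n = 4). The lowest Ttpa-/- array on the deficient diet lay below the lowest aged wild-type array, so those groups overlapped.

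In the cerebellum Hba-a1 started from a higher level in young mice, at 1.94, 2.15, 0.99 and 2.08 (mean 1.79 ± 0.54, SD, n = 4). In the aged wild-type cerebellum it read 5.15, 2.75, 3.47 and 5.72 on the normal diet (mean 4.27 ± 1.39, SD, n = 4). On the deficient diet the wild-type arrays read 3.23, 3.36, 4.81 and 5.07 (mean 4.12 ± 0.96, SD, n = 4). All 8 aged wild-type arrays were above the 4 young ones. In Ttpa-/- mice the cerebellum read 2.29, 4.80, 4.38 and 2.54 on the deficient diet (mean 3.50 ± 1.28, SD, n = 4). It read 2.60, 6.15, 4.93 and 5.04 on the supplemented diet (mean 4.68 ± 1.49, SD, n = 4). Both ranges overlapped with that of aged wild-type mice fed the normal diet.

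**Figure D1:**
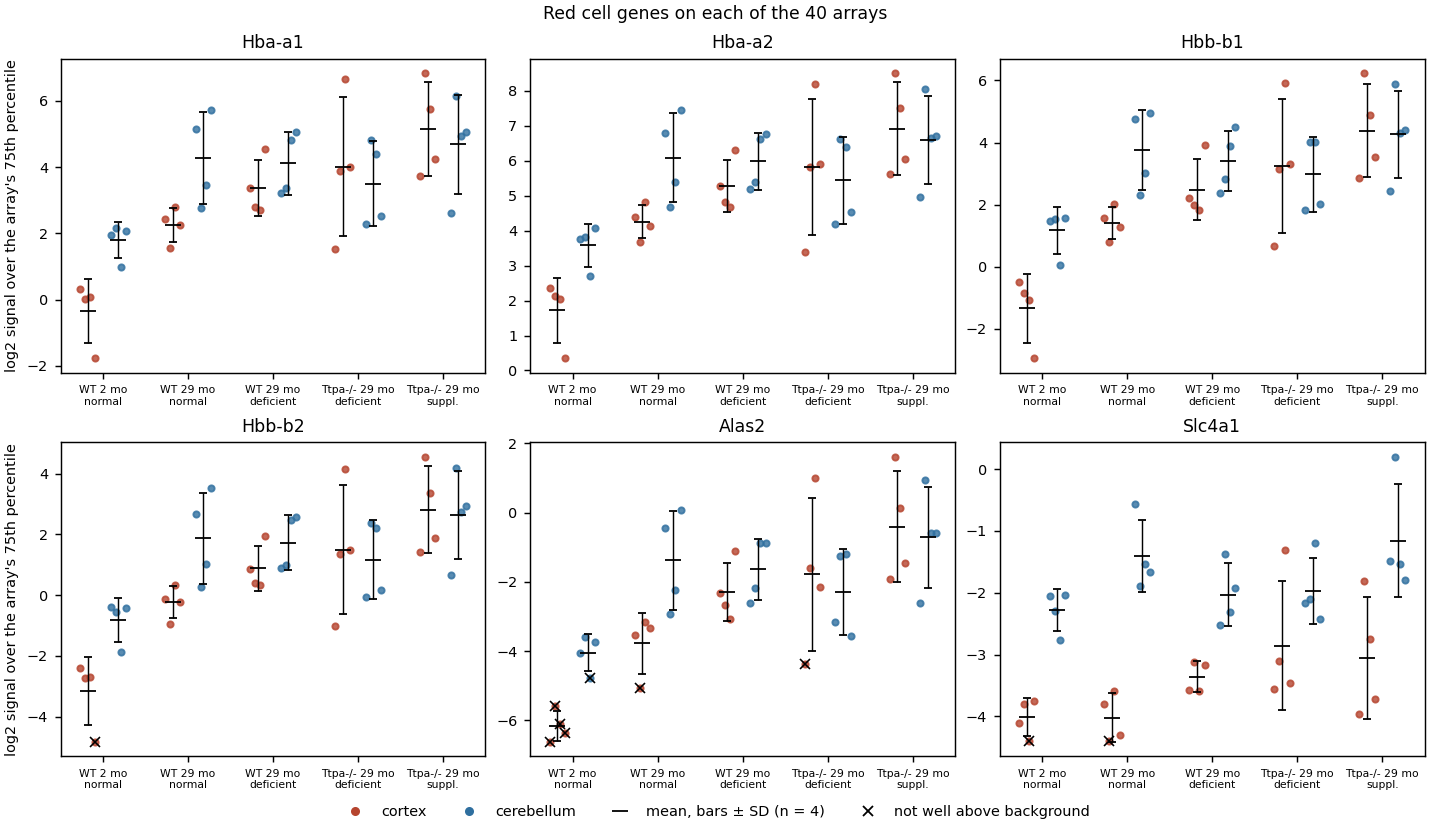
Log2 signal over the array's 75th percentile for the 6 genes on each array (points) in the 5 conditions of each region, with the group mean and SD (n = 4, lines). The young cortex holds the lowest Hba-a1 group mean, −0.34, and the Ttpa-/- cortex on the supplemented diet the highest, 5.14.

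Ordered by mean, Hba-a1 ran from the young cortex through the young cerebellum and the aged wild-type cortex on the normal diet to the supplemented Ttpa-/- cortex. Of the 9 pairs of neighbours in that order, 8 overlapped in their arrays, and only the young cortex stood apart from the group above it. The same count, 8 of 9, held for each of the other members. In Hba-a2, Hbb-b1, Hbb-b2 and Alas2 the pair that did not overlap was again the young cortex and the young cerebellum. In Slc4a1 it was the young cortex and the wild-type cortex on the deficient diet.

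Hba-a2, read by a probe that binds transcripts of both α-globin copies, varied over a 284-fold range. Its group means were 1.72 ± 0.93 (SD, n = 4) in the young cortex and 4.26 ± 0.48 in the aged cortex on the normal diet, and 3.59 ± 0.61 and 6.08 ± 1.27 in the cerebellum. The β-globin gene Hbb-b1 spanned a 577-fold range, from −1.34 ± 1.10 in the young cortex to 4.38 ± 1.49 in the supplemented Ttpa-/- cortex (SD, n = 4).

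Hbb-b2 was well above background on 39 of 40 arrays and spanned a 156-fold range over those 39. The young cortex read −2.41, −2.72, −2.69 and −4.83, the last not well above background (mean −3.16 ± 1.12, SD, n = 4). In the aged cortex on the normal diet it read −0.14, −0.94, 0.34 and −0.21 (mean −0.24 ± 0.53, SD, n = 4). The lowest aged array exceeded the highest young array. In the young cerebellum it read −0.39, −0.54, −1.88 and −0.43, and in the aged cerebellum on the normal diet 2.67, 0.25, 1.04 and 3.53. The aged arrays were again above all the young ones, and they were spread over a 9.71-fold range.

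Alas2, the erythroid enzyme gene, was a dim probe and was well above background on 33 of 40 arrays. None of the 4 arrays of young cortex had it well above background, and there it read −6.61, −5.59, −6.10 and −6.37. In the aged cortex on the normal diet it read −3.54, −5.06, −3.17 and −3.35 and was well above background on 3 of the 4. In the supplemented Ttpa-/- cortex it read −1.90, 1.61, 0.13 and −1.47, well above background on all 4. The young cerebellum read −4.06, −3.59, −4.78 and −3.75 and the aged cerebellum on the normal diet −0.45, −2.92, −2.22 and 0.09. No young array reached the lowest aged array in either region.

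Slc4a1, the band 3 gene, behaved differently from the others: it spanned a 22.7-fold range over the 38 arrays where it was well above background, and its cortical arrays lay mostly below its cerebellar arrays. The 20 cortical arrays read −4.40 to −1.31 and the 20 cerebellar arrays −2.77 to 0.20. In the young cortex it read −4.12, −3.79, −4.40 and −3.75 and in the aged cortex on the normal diet −3.80, −4.40, −3.59 and −4.30, with 1 array not well above background in each. These 8 cortical arrays overlapped throughout. In the young cerebellum it read −2.05, −2.29, −2.77 and −2.04, and in the aged cerebellum on the normal diet −0.56, −1.89, −1.53 and −1.66. There the lowest aged array was above the highest young one.

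Among replicate arrays these genes were some of the least even on the array. The SD within groups, pooled over the 10 groups, was 1.14 to 1.27 for the 4 globin genes and Alas2, against a median of 0.192 over 31079 probes, which placed them at ranks 105 to 151. For Slc4a1 it was 0.649, at rank 1397. Within the Ttpa-/- cortex on the deficient diet, Hbb-b1 differed 38.7-fold between the lowest and the highest of 4 arrays.

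The array-to-array deviations were shared between the genes. After each group's mean was removed, the 10 pairs among the 4 globin genes and Alas2 correlated over the 20 cortical arrays at r = 0.910 to 0.998 and rho = 0.814 to 0.994, and over the 20 cerebellar arrays at r = 0.981 to 0.995 and rho = 0.959 to 0.990. Adjusted over 30 relations, the permutation p of r (deviations shuffled within groups) was 2.5e-05 to 0.00033 in the cortex and 2.5e-05 to 9.4e-05 in the cerebellum. Unadjusted, 1e-05 was the smallest p that these permutations could give. Without the 2 arrays farthest from the median of the x measure, r was 0.814 to 0.997 and 0.973 to 0.994. The points share their libraries, and the Hba-a1 and Hba-a2 probes share targets.

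The deviations were also of the same size. For each unit by which Hba-a1 deviated, Hba-a2 deviated by 0.927 in the cortex and 0.905 in the cerebellum, Hbb-b1 by 1.05 and 0.956, Hbb-b2 by 1.01 and 1.02, and Alas2 by 0.966 and 0.970. Slc4a1 deviated by only 0.410 and 0.242. Its 5 correlations with the others were r = 0.756 to 0.867 and rho = 0.629 to 0.749 in the cortex, where all 5 passed (permutation test, adjusted p = 0.00054 to 0.0107 for r and 0.00611 to 0.0233 for rho). In the cerebellum they were r = 0.472 to 0.589 and rho = 0.516 to 0.612, where only that with Hbb-b1 passed by r (adjusted p = 0.0388 to 0.106) and all 5 passed by rho (adjusted p = 0.0169 to 0.0398). Without the 2 farthest arrays r was 0.606 to 0.813 and 0.417 to 0.558.

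**Figure D2:**
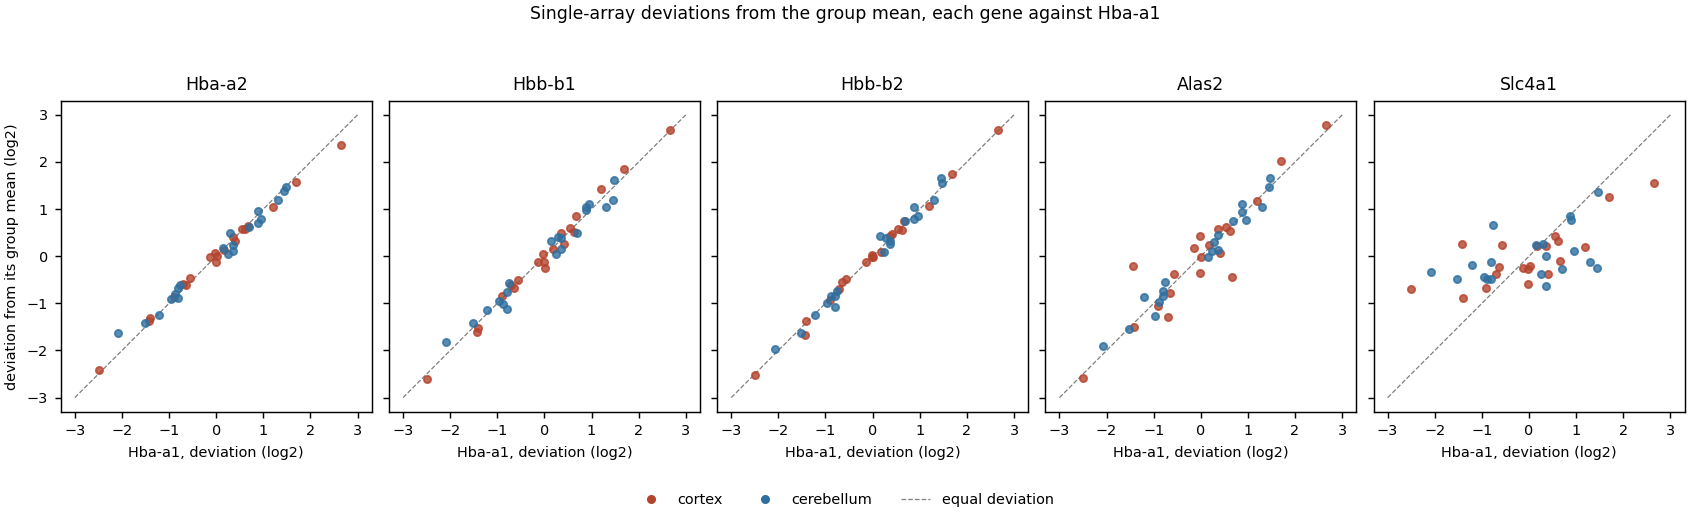
Deviation of each array from its group mean (log2) for 5 genes against that of Hba-a1, with 20 cortical and 20 cerebellar arrays in each panel and a dashed line of equal deviations. Hba-a2, Hbb-b1, Hbb-b2 and Alas2 lie along the line, with slopes of 0.905 to 1.05, and Slc4a1 is flatter, with slopes of 0.410 and 0.242.

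With the members themselves left out, of 20952 probes of named genes well above background on at least 20 arrays, the one whose deviations were most like those of Hba-a1 over the 40 arrays was Beta-s, the further β-globin probe, with r = 0.992. Next came Zdhhc22 (r = 0.860), a palmitoyltransferase gene of the zinc finger DHHC family, Gm9992 (r = 0.798), a predicted gene, and Fam46c (r = 0.693), a gene of a non-canonical poly(A) polymerase. The remaining 6 of the 10 most alike were Muted, Isg20, Nsmce1, Dnaic1, Smo and Snord123, with r = 0.663 to 0.685. These correlations are descriptions over arrays that share all their processing, and they carry no test.

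Aging was the first comparison, of wild-type mice of 29 and 2 months on the normal diet. In the cortex all 4 globin genes read higher in aged mice, by 5.80-fold to 7.60-fold, and 1 of them passed the test. Hbb-b2 rose by 2.93 ± 0.87 (log2, SE), which is 7.60-fold, with limma's adjusted p = 0.0492. This member had passed the filter on dim probes through its aged arrays, since 3 of 4 young arrays were well above background. Of all probes tested, 1.59% were called higher, where a call is an adjusted p below 0.05 and a fold above 1.5. The values for the others were 2.59 ± 0.85 for Hba-a1 (adjusted p = 0.0844), 2.53 ± 0.79 for Hba-a2 (0.0622) and 2.75 ± 0.87 for Hbb-b1 (0.0680), each from the same limma fit. In an exact permutation test, two-sided, of 4 against 4 arrays each globin gene gave p = 0.0286, the smallest the design allows.

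Alas2 was not tested in the aging cortex, because no group had all 4 arrays well above background. Its aged arrays were 1.57-fold higher than the young ones by the bound that background sets, with 3 of 4 aged arrays well above background. The measured means differed by 2.39. Slc4a1 was not tested either, and its means differed by −0.01 (exact permutation p = 0.943). The young and aged arrays did not overlap in any of the 4 tested genes, aged higher, against 6.88% of all probes tested, and the Alas2 arrays did not overlap either. For Hbb-b2, which passed the filter through its aged arrays, and for the untested Alas2 nothing is read from this. Both groups lay on 1 slide, and when they were fitted alone no globin gene passed (limma, adjusted p = 0.0511 to 0.0609). The Hbb-b2 call held in 4 of 10 alternative settings, over which its adjusted p was 0.0410 to 0.238, and in none of the 8 fits that left out 1 array. With a different background correction (normexp) the Hbb-b2 difference was 1.73. That of Alas2 was 0.29, which is below its bound.

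In the cerebellum 4 of the 6 genes rose with age. Hba-a2 rose by 2.50 ± 0.79 (5.64-fold, adjusted p = 0.0353), Hbb-b1 by 2.58 ± 0.87 (6.00-fold, 0.0494), Hbb-b2 by 2.68 ± 0.87 (6.42-fold, 0.0417) and Alas2 by 2.67 ± 0.87 (6.36-fold, 0.0418), all from limma. Alas2 had passed the filter through its aged arrays, with 3 of 4 young arrays well above background. Of all probes tested, 3.99% were called higher. Hba-a1 differed by 2.48 ± 0.85 (adjusted p = 0.0566) and Slc4a1 by 0.88 ± 0.45 (0.241). Young and aged arrays did not overlap in any of the 6 genes, against 9.87% of all probes higher without overlap. For Alas2 nothing is read from this, given how it passed the filter. The 2 groups lay on different slides, so slide and age cannot be told apart here.

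These cerebellar calls lay close to the threshold. When the groups were fitted alone, 0 of the 6 genes were called. Over 10 alternative settings the calls held in 6 for Hba-a2, Hbb-b1 and Hbb-b2 and in 5 for Alas2, and the adjusted p was 0.0259 to 0.115 over the 4 of them. Without young array 1, 2 or 3, or aged array 1 or 4, 0 genes were called. Without young array 4 the count was 1. The difference of the aging effect between cortex and cerebellum was −0.88 to 0.24 over the 6 genes (limma interaction, adjusted p = 0.683 to 0.999), with 0 called and 0 at an unadjusted p below 0.05, against 1.83% of all probes. Its 95% intervals are wide, with standard errors of 0.63 to 1.23.

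Other wild-type and Ttpa-/- comparisons followed, in mice of 29 months. The deficient diet in wild-type mice, Ttpa-/- mice on the deficient diet (the comparison that models chronic oxidative stress) and Ttpa-/- mice on the supplemented diet were each set against the same aged wild-type arrays on the normal diet, so these comparisons share their controls and are not independent of each other or of aging. In the cortex all 3 gave positive differences for all 6 genes, and none was called. In no cortical comparison of aged mice did the groups compared share a slide, so slide and condition cannot be told apart there.

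Under the deficient diet the wild-type cortex differed by 0.66 to 1.48, and 0 of 6 genes were called by limma (adjusted p = 0.410 to 0.566), with 0 at an unadjusted p below 0.05. The methods' t-test called 0 after Benjamini-Hochberg adjustment and 3 without it. Of all probes, 0.223% were called in either direction. Alas2, at −2.32, −2.68, −3.07 and −1.12 on the deficient diet, and Slc4a1 did not overlap with the controls, against 4.68% of all probes higher without overlap. Both had passed the filter through their deficient-diet arrays, with 3 of 4 control arrays well above background, so nothing is read from that count.

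Under oxidative stress the cortex differed by 1.16 to 2.00. Of the 5 genes tested 0 were called, 3 were below an unadjusted p of 0.05, and the adjusted p was 0.0646 to 0.163 (limma), against 4.75% of all probes called. The methods' t-test called 0 with or without adjustment. The Hba-a1 arrays of 1.51, 3.87, 6.66 and 3.99 were the most uneven of any group, with replicate 1 below all 4 control arrays and the other 3 above them. Without replicate 1, 4 genes were called, and without replicate 4, 1 was. Slc4a1, which had passed the filter through its Ttpa-/- arrays (3 of 4 control arrays were well above background), differed by 1.16 ± 0.45 (adjusted p = 0.0646), with arrays at −3.55, −3.11, −1.31 and −3.45. Alas2 differed by 2.00 and was not tested.

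In the cortex of Ttpa-/- mice on the supplemented diet all 6 genes differed upwards from the aged wild-type cortex without passing the test. Alas2 differed by 3.37 ± 0.87, which is 10.3-fold (limma, adjusted p = 0.0998), Hbb-b2 by 3.06 ± 0.87 (8.31-fold, 0.159) and Hba-a1 by 2.89 ± 0.85 (7.39-fold, 0.184). All 6 genes were below an unadjusted p of 0.05 and 0 were called after adjustment, against 0.0920% of all probes. The methods' t-test called 0 after adjustment and 5 without. Alas2 and Slc4a1 had passed the filter through their supplemented arrays, with 3 of 4 control arrays well above background, so the Alas2 fold rests in part on a control array near background. In the 4 globin genes all 4 supplemented arrays were above all 4 controls, against 3.05% of all probes. The Alas2 arrays did not overlap either, but nothing is read from that, given how Alas2 passed the filter. Without supplemented replicate 1, 1 gene was called.

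Against wild-type mice on the same deficient diet, Ttpa-/- mice differed in the cortex by 0.50 to 0.77 (limma, adjusted p = 0.484 to 0.735), with 0 of 6 called, against 3.07% of all probes. Without Ttpa-/- replicate 3 all 6 differences turned negative, at −0.41 to −0.01. Supplemented against deficient Ttpa-/- mice differed in the cortex by −0.20 (Slc4a1) to 1.37 (Alas2), with 0 of 6 called (adjusted p = 0.314 to 0.811), against 3.31%. In neither was any gene below an unadjusted p of 0.05 or called by the methods' t-test. The 95% interval of the Hba-a1 difference was −1.09 to 2.39 in the first and −0.61 to 2.86 in the second.

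The cerebellum gave differences of mixed sign and no call in any of the 5 comparisons of aged mice, with 0 genes at an unadjusted p below 0.05 and 0 by the methods' t-test. The deficient diet in wild-type mice gave −0.62 to −0.09 (limma, adjusted p = 0.444 to 0.961), against 1.27% of all probes called. Oxidative stress gave −0.92 to −0.56 (0.448 to 0.657), against 4.46%. Supplemented Ttpa-/- against wild-type mice gave 0.25 to 0.76 (0.617 to 0.804), against 4.91%. Genotype on the deficient diet gave −0.65 to 0.06 (0.655 to 0.947), against 4.94%. The supplement in Ttpa-/- mice gave 0.82 to 1.59 (0.506 to 0.683), against 0.343%. For the first and the last of these the 2 groups shared a slide, and 0 genes were called when the pair was fitted alone (adjusted p = 0.329 to 0.951 and 0.852 to 0.939).

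The oxidative stress differences, none of which passed, were positive in the cortex and negative in the cerebellum, and the difference between the regions was tested as such. It was 1.73 to 2.92 over the 6 genes, and 0 passed (limma interaction, adjusted p = 0.0913 to 0.238), with 4 at an unadjusted p below 0.05, against 7.04% of all probes. With same-numbered arrays of both regions as a random block Slc4a1 passed (limma, adjusted p = 0.0489), and with array weights Slc4a1 (0.0269) and Alas2 (0.0409) did. For supplemented Ttpa-/- against wild-type mice it was 0.71 to 2.70 (0.303 to 0.678), with 2 unadjusted and 0 called, against 1.19%. For the deficient diet in wild-type mice it was 1.10 to 1.75 (0.348 to 0.662), against 0.0126%. For genotype on the deficient diet it was 0.44 to 1.26 (0.597 to 0.741), against 1.15%, and for the supplement −1.02 to −0.05 (0.430 to 0.988), against 0.0567%. In the last 3, 0 genes were called and 0 were below an unadjusted p of 0.05.

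**Figure D3:**
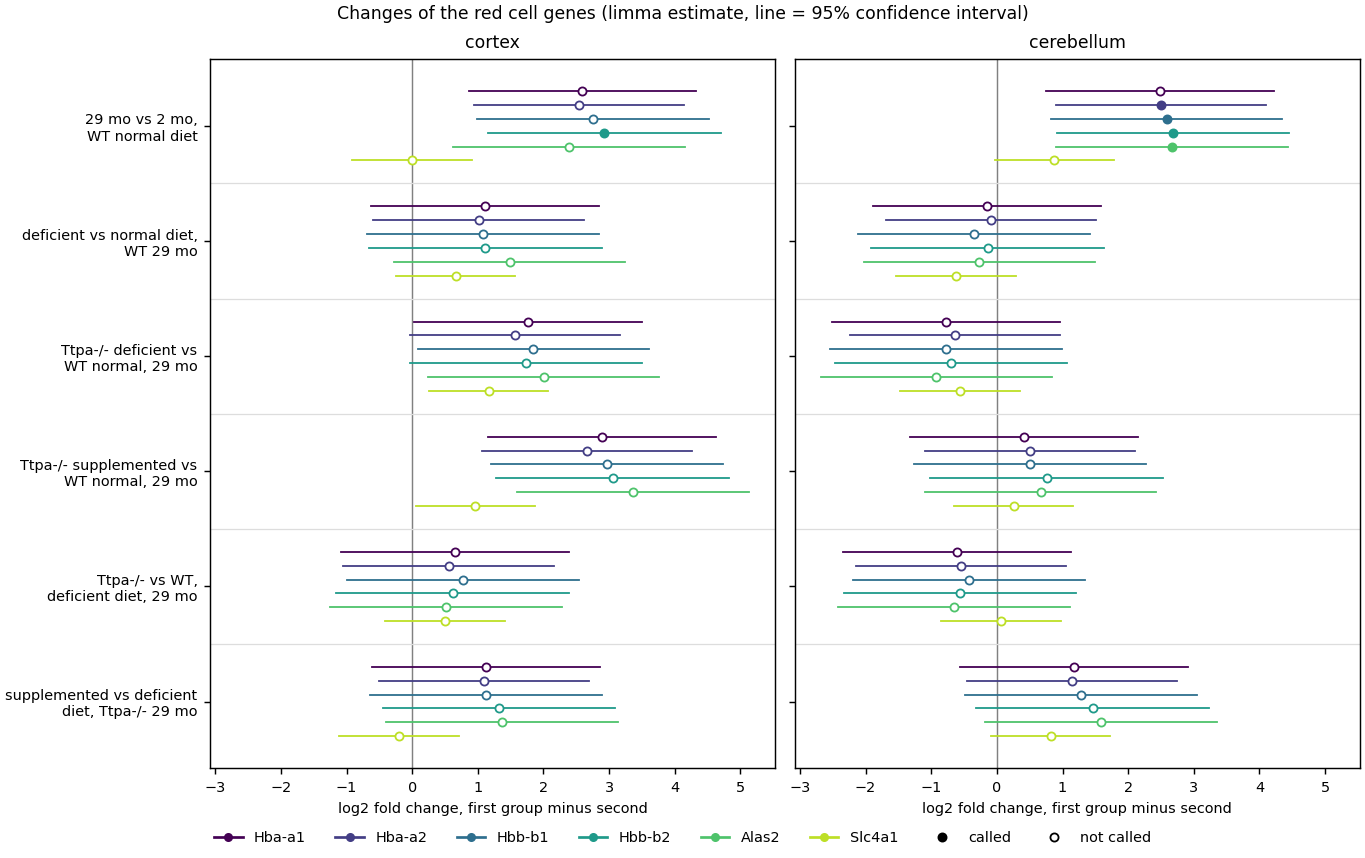
Log2 differences of the 6 genes with 95% confidence intervals from limma in 6 comparisons of groups, for the cortex (left) and the cerebellum (right), where filled points were called and open points were not. Aging gives 1 filled point in the cortex, Hbb-b2 at 2.93, and 4 in the cerebellum, and the other comparisons give none.

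Cortex and cerebellum were then compared within each condition. In young wild-type mice the cortex read lower in every gene, and all 5 tested genes were called. The differences, cortex minus cerebellum, were −2.14 ± 0.85 for Hba-a1 (4.40-fold lower, adjusted p = 0.0296), −1.86 for Hba-a2 (0.0396), −2.51 for Hbb-b1 (0.0126), −2.35 for Hbb-b2 (0.0193) and −1.73 ± 0.45 for Slc4a1 (0.00120), from limma. Of all probes, 19.3% were called lower in the cortex. The neighbour probe Beta-s differed by −1.76 and was not called (limma, adjusted p = 0.0884). Hbb-b2 and Slc4a1 had passed the filter through their cerebellar arrays. Alas2 was not tested, and by the background bound it was 1.30-fold lower in the cortex, with 3 of 4 cerebellar arrays well above background. With normexp background correction its difference was 0.0048, so that bound did not hold there. The arrays of the 2 regions did not overlap in any of the 5 tested genes, cortex lower, against 27.4% of all probes tested, nor in Alas2. For Hbb-b2 and Slc4a1, given how they passed the filter, and for the untested Alas2 nothing is read from this. Without cortical replicate 4, whose Hba-a1 value of −1.78 was the lowest of the series, only 1 gene was called, and without cerebellar replicate 1, 2 or 4 the count was 3.

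In aged wild-type mice fed the normal diet all 6 genes were called lower in the cortex, against 17.8% of all probes. The changes were −1.82 (Hba-a2, adjusted p = 0.0482) to −2.61 ± 0.45 (Slc4a1, 6.11-fold, 8.11e-06, limma). The neighbour probe Beta-s differed by −2.03 and was not called (limma, adjusted p = 0.0551). Alas2 and Slc4a1 had passed the filter through their cerebellar arrays, with 3 of 4 cortical arrays well above background. Hbb-b1, Alas2 and Slc4a1 did not overlap between the regions, against 28.6% of all probes, while Hba-a1, Hba-a2 and Hbb-b2 did. For Alas2 and Slc4a1 nothing is read from this, given how they passed the filter. The count fell to 1 without cortical replicate 2 or cerebellar replicate 1 or 4, and to 3 without cortical replicate 1 or 4. In each condition the 2 regions lay on different slides, so slide and region cannot be told apart.

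In the other aged groups the globin genes and Alas2 did not pass between the regions, and Slc4a1 did in 2 of 3. In wild-type mice on the deficient diet Slc4a1 was lower in the cortex, with a difference of −1.33 ± 0.45 (limma, adjusted p = 0.00976), the 1 gene called, against 23.2% of all probes. In Ttpa-/- mice on the deficient diet 0 genes were called, with 0 unadjusted and 0 by the methods' t-test, against 41.9% of all probes in either direction. There Slc4a1 differed by −0.89 ± 0.45 (0.0812) and the others by 0.28 to 0.52. In Ttpa-/- mice on the supplemented diet Slc4a1 differed by −1.91 ± 0.45 (0.000460), against 19.8% of all probes called lower, and the other 5 genes by 0.12 to 0.45.

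Other genes of the red cell, from lists of the pathway, did not follow the members as a group in the aging cortex. Of the 8 genes of the general haem pathway 0 were called (limma, median difference −0.01 against −0.03 over all probes), and Fech, which inserts the iron, differed by −0.08 ± 0.07. Of 7 tested genes of the red cell membrane and skeleton 0 were called (median −0.04), and of 8 erythroid regulators and other erythroid genes 0 (median −0.07). Rhag, of the red cell membrane, and Klf1, an erythroid transcription factor, were not well above background on any array. The further β-globin Hbb-bs differed by 2.57 (adjusted p = 0.116). Among 9 tested genes of haemoglobin and haem clearance, Hmox1, which opens the haem ring, rose by 0.68 (adjusted p = 0.000425).

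In the aging cerebellum Hbb-bs rose by 2.83 (adjusted p = 0.0377), and 0 of 8 haem pathway genes (median −0.04) and 0 of 7 membrane genes (median 0.01) were called. Of 8 tested erythroid genes 3 were called: Tent5c, listed on the array as Fam46c, rose by 2.31 (1.84e-06), Tal1, a transcription factor of blood and endothelium, rose by 1.65 (0.00627), and Tfrc, the transferrin receptor, fell by 0.98 (8.88e-06). The haemoglobin scavenger Hp rose by 1.73 (0.0203) and Hmox1 by 0.76 (2.29e-05), while the median over all probes was −0.01. Ngb, the neuronal globin, rose by 2.15 (0.00831). All values are limma's, adjusted over all probes tested, of which 3.99% were called higher and 1.04% lower.

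Markers of other blood cells moved with some of the same comparisons. In the aging cortex 2 of 4 tested neutrophil genes rose, against 1.59% of all probes called higher. These were S100a8 by 3.26 (limma, adjusted p = 0.0115) and S100a9 by 3.29 (0.00892). The mean log2 signal over 6 detected neutrophil genes was −4.11 to −3.14 in young and −2.06 to −1.33 in aged mice. The platelet gene Gp1bb fell by 0.59 (0.00978), and 5 detected platelet genes averaged −2.41 to −2.22 and −2.95 to −2.28. No gene of the B cell, T cell, endothelial or choroid plexus lists was called. In the aging cerebellum 3 of 4 tested platelet genes rose (Ppbp by 3.48, Treml1 by 2.00, Pf4 by 0.91) and 2 of 8 neutrophil genes (Mpo by 2.51, Retnlg by 2.41), from limma. The share of all probes called higher there was 3.99%. The plasma cell gene Igj, 1 of 3 tested B cell genes, rose by 3.56 (6.96e-06), and the T cell gene Cd2, 1 of 3 tested, by 2.37 (0.00271). The neutrophil mean there was −2.19 to −0.88 in young and −0.65 to 2.02 in aged mice. Their part in the red cell result was not tested.

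Vessel and choroid plexus genes were read alongside. In the aging cerebellum 2 of 10 endothelial genes rose, Vwf by 1.07 and Ly6c1 by 0.76, against 3.99% of all probes called higher. The endothelial mean moved from 0.96 to 1.05 in young mice to 1.12 to 1.39 in aged mice. Of 7 tested choroid plexus genes 3 fell, against 1.04% of all probes called lower. Their log2 differences were −7.70 for Ttr, −5.73 for Kcne2 and −2.30 for Kl (limma). The list averaged −2.23 to 2.15 in young and −3.52 to −2.99 in aged mice. In the cortex the choroid plexus mean was between −3.22 and 1.24 on single arrays of young mice, with the lowest value on replicate 4, the array with the lowest globin signals. In the supplemented Ttpa-/- cortex, where the globin means were highest, 0 genes of the neutrophil, platelet, endothelial or choroid plexus lists were called against wild-type mice. Of all probes 0.0920% were called in that comparison, so nothing is read from this count. The neutrophil mean in that cortex, −3.12 to −2.15, was below that of all aged wild-type cortical arrays on the normal diet. Under oxidative stress in the cortex 1 of 4 neutrophil genes was called, Elane by 0.83, and 1 T cell gene, Cd4 by 0.72. The mean over 6 detected neutrophil genes went the other way from Elane. It was −2.20 under oxidative stress and −1.84 in the aged wild-type cortex on the normal diet, a difference that was not tested. The share of all probes called higher there was 3.14%.

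Between the regions, the young cortex read S100a8 at −3.95 and S100a9 at −3.98 relative to the cerebellum. Both were called lower by limma, as were 19.3% of all probes. All 4 tested platelet genes were called higher in the young cortex, as were 19.1% of all probes. In aged mice on the normal diet 7 of 8 tested neutrophil genes were called lower in the cortex, and the platelet gene Ppbp by −3.28, against 17.8% of all probes called lower. Ppbp does not stand for its list. The mean over 5 detected platelet genes was −2.50 in that cortex and −2.57 in that cerebellum.

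**Figure D4:**
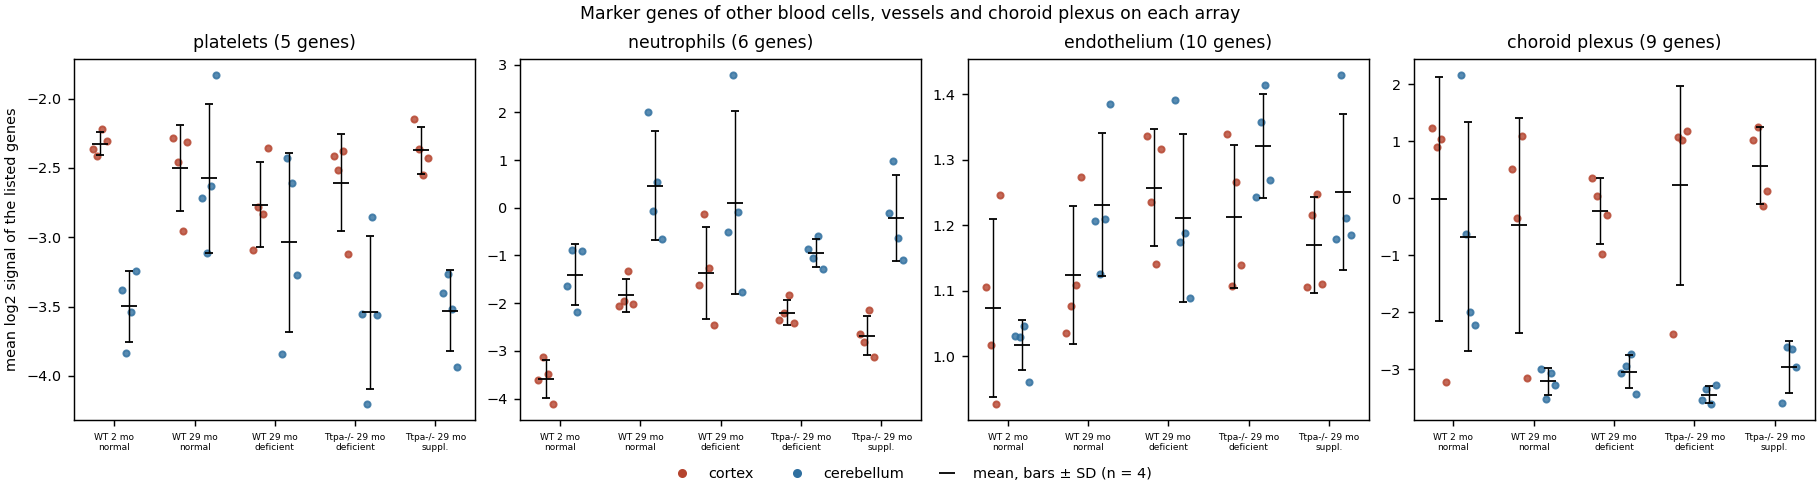
Mean log2 signal of 5 platelet, 6 neutrophil, 10 endothelial and 9 choroid plexus genes on each array (points) by condition and region, with the group mean and SD (n = 4). The neutrophil genes are lowest in the young cortex, −4.11 to −3.14, and the cerebellar choroid plexus genes lie between −3.60 and −2.61 in all aged groups.

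From array to array within groups, no relation of Hba-a1 with these markers passed the test. Its deviations correlated over the 20 cortical arrays with the platelet mean at r = 0.00, the neutrophil mean at 0.10, the endothelial mean at −0.01, the choroid plexus mean at 0.546 and the array's 75th percentile at 0.237. Over the 20 cerebellar arrays the values were 0.222, −0.02, 0.412, 0.188 and −0.07. None of the 10 passed the permutation test after adjustment over the 10, and the strongest, with the choroid plexus mean in the cortex, had p = 0.0208 and an adjusted p of 0.208, and r = 0.425 without the 2 farthest arrays.

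The labels number the arrays 1 to 4 in both regions without saying that a number is 1 animal. Over the 20 pairs of cortical and cerebellar arrays with the same condition and number, the Hba-a1 deviations correlated at r = 0.515 (permutation p = 0.0483) and rho = 0.454 (p = 0.0832), and at r = 0.433 without the 2 farthest pairs. In the Ttpa-/- mice on the supplemented diet, a group singled out after its values were seen, replicate 2 was the highest of its group in both regions for each of the 6 genes.

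**Figure D5:**
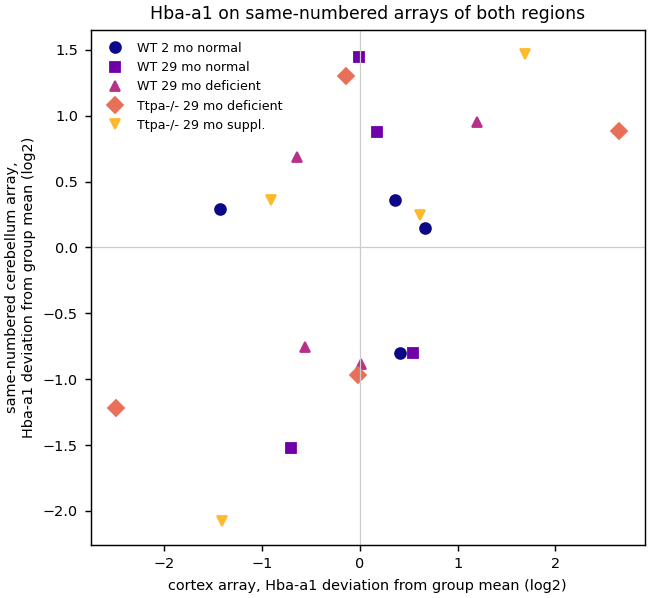
Hba-a1 deviation from the group mean (log2) on the cerebellar array against that on the cortical array with the same condition and number, 20 pairs. The points scatter around a rising trend, with r = 0.515.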

How the data were processed

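RNA of the cerebral cortex and cerebellum was isolated with the mirVana kit, and 4 arrays were hybridised for each of 10 groups, which were taken from the deposited labels. Per the file headers, the authors extracted spots with Feature Extraction 10.7.3.1 (the submitters' processing notes name 10.1.1.1) against an array design on mm9. The deposited processed signal is an intensity after background subtraction and spatial detrending, made array by array with no step across arrays, and the deposited mean signal and local background are intensities used for an alternative. Deposited flags of each spot hold 0 or 1 and marked non-uniform spots, outliers, saturation and signal well above background. The authors also deposited a log2 table, which was the log2 signal over the 75th percentile less the probe's 40-array mean, to a median absolute difference of 0.000915 (column medians −0.235 to 0.185). No column of the authors' own comparisons was used.

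Flagged spots (95 to 148 of an array) were left out, and spots of a probe were averaged. The log2 signal minus the log2 75th percentile was fitted with limma 3.58.1 in R 4.3.3, with 10 group coefficients over all 40 arrays and no block. Probes were tested where 1 or both of the groups compared had every array well above background, with Benjamini-Hochberg adjustment over all of them. A call needed an adjusted p below 0.05 and a fold above 1.5 (no fold for differences of effects). A bound sets the brighter group's mean, over all its arrays, against the lowest signal well above background on each dim array. It holds for the main signals only and is no lower limit under another background correction. In simulated data for 4 of the comparisons, 153 to 173 of 200 probes changed 2-fold were recovered, and 194 to 199 of 200 changed 4-fold, with 0 in the wrong direction. Those probes were drawn from all probes tested, each with its own spread. The globin genes and Alas2 were far more uneven (SD within groups 1.14 to 1.27, median probe 0.192). These recovery rates therefore do not hold for them, and their missing calls do not show an absence of change. Relations used scipy 1.17.1 with 100000 shuffles. The number of arrays limits the precision.

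The 6 members and the 14 lists of other genes were chosen with earlier results of these data known. All members were named. From each list, up to 4 called genes with the largest change were named, or otherwise up to 2 with the highest signal, and the 10 genes most like Hba-a1 over 40 arrays. Other genes were named after their values were seen. The labels do not say that a replicate number is 1 animal, nor that arrays of a group are separate animals, though the methods speak of 4 mice per group; p-values measure the spread between these arrays. For same-numbered arrays, every pair's r was above 0.1 only for the supplement in the Ttpa-/- cortex (r = 0.102 to 0.450) and for the regions of Ttpa-/- mice on the deficient diet (r = 0.138 to 0.480). Some pairs of other comparisons exceeded 0.1 too. The mean r of a comparison ran from −0.152 (supplemented Ttpa-/- against wild-type cerebellum) to 0.336 (the supplement in the Ttpa-/- cerebellum, 3 of 4 pairs above 0.1). Proteins, and promoter windows of Slc4a1, Hbb-b1 and Hbb-b2, were not analysed here, and some genes of the lists are not reported here.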

Additional observations from a re-analysis of the deposited data

Results flagged for a closer look

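In 6 of the 60 combinations of gene and group, 1 array lay far from the other 3 of its group (Dixon's test, which chance alone flags in about 5% of groups). Of these, 3 were on cortical array 4 of young wild-type mice. Hba-a1 read −1.78 there, against 0.02 for the nearest array, Hba-a2 read 0.35 against 2.05, and Hbb-b2 read −4.83, not well above background, against −2.72. On cerebellar array 3 of young wild-type mice Hbb-b1 read 0.05 against 1.49 and Hbb-b2 read −1.88 against −0.54. Slc4a1 read 0.20 on cerebellar array 2 of Ttpa-/- mice on the supplemented diet, against −1.49 for the nearest array, and this array also had the highest α-globin and β-globin signals of its group. Each globin flag marked the lowest array of its group for that gene. Since the globin deviations were shared between genes, flags on the same array are not separate observations.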

How the results depend on the processing

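Of 912 values of the 6 genes over 8 comparisons and all alternatives, 777 kept their direction and their side of the threshold, 97 lost a call, 32 gained one and 6 reversed. In the other 15 comparisons the sign turned in 120 of 1926 values, in 10 of the 15, including 20 of 114 for the deficient diet in the wild-type cerebellum and 27 and 32 of 150 for the region differences of aging and of the supplement. Where counts of called members changed, the cause was not tested. Aging in the cortex (1 called) gave 0 with median scaling, quantile normalization, normexp background correction, no filter on dim probes, the compared groups alone and the methods' t-test after Benjamini-Hochberg adjustment, 2 with array weights, 4 with that t-test unadjusted, and 0 without each of its arrays in turn. Aging in the cerebellum (4) gave 0 with median scaling, no filter, the compared groups alone and the adjusted t-test, and 0 to 5 without each array. Oxidative stress in the cortex (0) gave 5 with array weights and 0 to 4 without each array, and its difference between regions (0) gave 2 with array weights and 1 with same-numbered arrays of both regions as a random block (correlation 0.113). Supplemented Ttpa-/- against wild-type cortex (0) gave 1 with array weights, 5 with the unadjusted t-test and 0 to 1 without each array, and the deficient diet in the wild-type cortex (0) gave 3 with the unadjusted t-test. Between regions, young mice (5) gave 3 with array weights and 1 to 6 without each array, aged mice on the normal diet (6) gave 3 with the adjusted t-test and 1 to 6 without each array, supplemented Ttpa-/- mice (1) gave 0 with the adjusted t-test, and Ttpa-/- mice on the deficient diet (0) gave 0 to 1 without each array.

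The replicate block gave the same counts of called members in every comparison (aging 1 in the cortex and 4 in the cerebellum), and changed no other call; over all probes it moved the calls of the deficient diet in the wild-type cortex from 33 higher and 30 lower to 45 and 49. No block for the slide could be fitted, since groups did not cross slides. The alternative of other probes of a member was not run, since each had 1. Some values reversed. The Alas2 difference between regions in young mice, −2.12 in the main fit, was 0.0048 with normexp, so it was lost with that background correction. The Slc4a1 change in the aging cortex was near 0 in the main fit, at −0.01. It was 0.0050 with array weights and −0.15 to 0.12 without each array. Relations of Hba-a1 near 0 also reversed, with platelet genes in the cortex (−0.0244 with median scaling, −0.0523 with quantile normalization, −0.158 with normexp), neutrophil genes in the cerebellum (0.0031 with median scaling) and endothelial genes in the cortex (0.0319 with quantile normalization, 0.0505 with normexp). In the cerebellum Slc4a1 passed with Hba-a1 (0.568), Hba-a2 (0.610), Hbb-b2 (0.586) and Alas2 (0.640) with median scaling and with Hba-a2 (0.565) and Alas2 (0.578) with quantile normalization, and no longer with Hbb-b1 (0.567) with normexp. The endothelial relation of Hba-a1 in the cerebellum passed with median scaling (0.738). Alas2 and Slc4a1 lay near background in the cortex, which limits their folds there.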
